A study of Mus musculus with 9 samples.

Results

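The TRIM genes are the genes of the tripartite motif family, a large group made up mostly of ubiquitin ligases. They were taken by symbol, as every probe set annotated with 1 gene symbol made of Trim, a number and at most 1 further letter. This gave 111 probe sets for 58 genes on the array. A gene was kept when at least 1 of its probe sets lay above the 40th percentile of its own array on at least 3 of the 9 arrays, which left 71 probe sets for 40 genes out of 13331 genes measured in all. Each gene was represented by its passing probe set with the highest mean over the 9 arrays.

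The arrays measured RNA from brain tissue around the striatal injection sites of adult male immunocompetent BALB/c mice, 2 days after injection. All HS and MC+HS mice received BV-HSVtk, a baculoviral vector derived from a virus of insects, at 100000000 particles in 10 µL on each side of the brain. Vector for the HS group was purified by high-speed centrifugation alone, and vector for the MC+HS group by membrane chromatography together with high-speed centrifugation. Mock mice received Sf9 insect cell medium that held no baculovirus and had been put through the MC+HS procedure, so for HS against mock the vector and the purification differ together and cannot be told apart. Each group held 3 mice with 1 array each, given as biological replicates (n = 3 per group). The stated aim was to compare the brain's expression response to vector purified by either route.

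Most TRIM proteins hold a RING finger, which binds a ubiquitin-charged enzyme, followed by B-box domains and a coiled coil through which they pair. The carboxy-terminal end varies and chooses the target, often through a PRY-SPRY domain. Part of the family is switched on by interferon and acts in sensing viruses, in tuning the signal that follows, or in binding viral particles, while other members serve chromatin, the neuronal cytoskeleton or striated muscle.

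Across the family the response to vector was a rise of an interferon and antiviral group, with no member called lower than mock in either vector group. Without HS replicate 1, an array that stood apart from the rest, 10 of the 40 genes were called higher than mock in HS, against 3.78% of all genes, and the same 10 in MC+HS, against 3.23%: Trim30d, Trim34a, Trim30a, Trim25, Trim21, Trim12c, Trim14, Trim56, Trim47 and Trim26. Rises ranged from 0.69 to 3.56 on the log2 scale in HS and from 0.63 to 3.30 in MC+HS. In the fit of all 9 arrays, 3 of these genes passed the test in HS (0.893% of all genes) and 2 in MC+HS (0.69%). Trim30d and Trim34a passed the filter through the vector arrays alone and had to differ. Over genes with at least 1 mock array above its 40th percentile, the 9-array calls were 1 of 38 in HS and 0 of 38 in MC+HS. Without HS replicate 1 they were 8 of 38 in each, against 3.38% and 2.83% of such genes. The 30 genes not among the 10 named above, including the abundant neuronal and chromatin members, were not called against mock in either fit.

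The promoter sequences of called members are shown here because 6 of the 9 with an entry hold a motif of interferon-responsive genes. Interferon signalling acts through the STAT and IRF factors, and the IRF factors bind promoters at paired GAAA letters. The motif searched was GAAANNGAAA on both strands, which reads TTTCNNTTTC on the opposite strand, in the 250 bases before and 50 after each start in the RefSeq promoter table of mouse assembly GRCm38.p6. Of the 40 measured genes 30 had an entry there. The capitals below mark the motif, and overlapping matches are capitalised as a single stretch. Trim30a, Trim30d and Trim12c are given from 100 bases to 1 base before the start.

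Trim30a, chr7:104465194-104465293, minus strand: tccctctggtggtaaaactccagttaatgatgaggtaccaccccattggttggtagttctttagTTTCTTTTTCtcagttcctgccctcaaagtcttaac
Trim30d, chr7:104507850-104507949, minus strand: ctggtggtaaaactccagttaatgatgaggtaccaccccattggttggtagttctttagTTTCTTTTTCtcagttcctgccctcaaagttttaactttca
Trim12c, chr7:104353350-104353449, minus strand: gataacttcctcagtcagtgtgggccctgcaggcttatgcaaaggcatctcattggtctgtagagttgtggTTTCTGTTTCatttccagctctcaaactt

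The Trim30a match lay at -36 to -27 from its start and the Trim30d match at -41 to -32, both reading TTTCTTTTTC. Those 100-base stretches were 89.5% identical (94 of 105 aligned columns), against 57.3% between Trim30a and Trim12c and 51.3% between Trim30d and Trim12c. Bases without a partner count as columns in these shares. The Trim30a and Trim30d stretches are shifted against each other, and where they overlap they differ only at aagtctt in Trim30a against aagtttt in Trim30d. Their motif matches are thus in nearly the same sequence. The Trim12c match at -29 to -20 reads TTTCTGTTTC. A further annotated start of Trim30a places the motif at 3 to 12 bases after that start.

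In Trim26 a pair of overlapping matches lay farther upstream, together covering -160 to -145, and the bases from -190 to -115 are shown. For Trim34a and Trim21 the matches lay just after the start, at 11 to 20 and, overlapping, at 14 to 29, and 30 bases around each are shown.

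Trim26, chr17:36836956-36837031, plus strand: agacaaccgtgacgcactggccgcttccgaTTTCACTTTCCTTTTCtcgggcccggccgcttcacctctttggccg
Trim34a, chr7:104244457-104244486, plus strand: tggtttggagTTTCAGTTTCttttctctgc
Trim21, chr7:102565447-102565476, minus strand: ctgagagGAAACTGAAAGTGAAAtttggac

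The motif was found in 6 of the 9 called genes with an entry (66.7%), in 1 of the 21 other measured TRIM genes with an entry (4.76%), and in 1131 of 32851 promoters of the whole table (3.44%), or 1079 of 27025 genes (3.99%). These shares are a description of the letters in these windows, and no test was made. The called genes without it were Trim25, Trim47 and Trim56, and Trim14 had no entry. Trim2, not called, carried it at 1 of its 5 annotated starts. Trim5 and Trim12a, whose probe sets were too dim to be measured here, carried it at -49 to -40 and at 11 to 20.

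**Figure D1:**
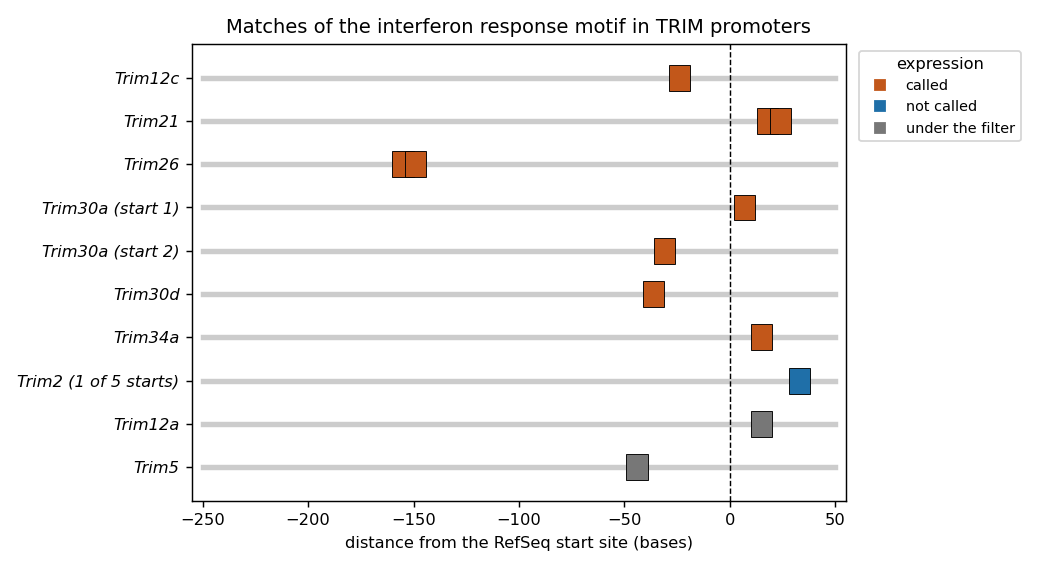
Position of each match of the interferon response motif in the promoter windows of TRIM genes. The horizontal axis is the distance in bases from the RefSeq start, grey bars are the windows searched, and boxes are matches coloured by whether the gene was called higher than mock without HS replicate 1, measured but not called, or under the filter on dim probe sets. Matches of Trim12c, Trim30d and 1 start of Trim30a lie within 50 bases before the start, and those of Trim26 lie between -160 and -145.

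Several of these genes are neighbours. On chromosome 7, 10 of the 11 protein-coding genes of an unbroken run are TRIM genes: in the order of the RefSeq table Trim6, Trim34a, Trim5, Trim12a, Trim34b, Trim12c, Trim30b, Trim30c, Trim30a and Trim30d, with Gm38525 between Trim12c and Trim30b. Of the 7 with a single-symbol probe set, Trim34a, Trim12c, Trim30a and Trim30d were bright enough to be measured, and all 4 were called without HS replicate 1. Trim34a and Trim30d were bright enough through the vector arrays alone and had to differ, so their calls say little about the run. Over all genes 3.78% were called higher in HS and 3.23% in MC+HS. Trim21 lies elsewhere on the same chromosome, where 5 of 9 measured TRIM genes were called, Trim34a and Trim30d among them. Members of this run resemble each other closely, so a probe set can take up transcripts of a relative and its value is uncertain in that respect.

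HS replicate 1 stood apart over all measured probe sets. Its median correlation with the other arrays was 0.757, against 0.956 to 0.979 for the other 8, and the SD of its log2 signals was 1.54 against 2.17 to 2.39. Median signals ran from 147 to 263 intensity units before scaling. Striatal neuron markers were detected on all arrays (5 of 5 measured), with a summed signal of 15380 to 16980 on mock arrays, 13180 to 18910 on MC+HS arrays and 13550 to 17240 on HS replicates 2 and 3, but 3928 on HS replicate 1. TRIM results are therefore given with and without that array. All values below are log2(signal + 16) after each array's median was brought to a common value, differences are on that scale, ± is the standard error, and p-values are from limma with Benjamini-Hochberg adjustment over all measured probe sets, called under 0.05.

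Trim30a (probe set 1417961_a_at) encodes an interferon-induced protein that dampens Toll-like receptor signalling by removing the adaptors TAB2 and TAB3. Its level was 7.95, 8.28 and 8.16 on the mock arrays, 9.08, 10.21 and 10.55 on the HS arrays and 9.92, 10.12 and 9.99 on the MC+HS arrays. All 6 vector arrays lay above all 3 mock arrays, and HS replicate 1 was the lowest of them. The difference from mock was 2.25 ± 0.14 in HS without that array (4.75-fold, limma adjusted p = 1.53e-05) and 1.88 ± 0.13 in MC+HS (3.68-fold, adjusted p = 2.87e-05). The 9-array difference was 1.81 ± 0.34 in HS (limma adjusted p = 0.0576) and 1.88 ± 0.34 in MC+HS (adjusted p = 0.0562), both just outside the threshold. Another probe set, 1451860_a_at, was called with all 9 arrays in HS (2.70 ± 0.34, limma adjusted p = 0.00981) and in MC+HS (2.49 ± 0.34, adjusted p = 0.0194).

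Trim30d (1435665_at), a close relative in the same cluster, had the largest differences from mock among the 40 genes in both vector groups. It read 4.69, 6.49 and 4.53 in mock, 7.96, 8.67 and 8.93 in HS and 8.32, 8.75 and 8.54 in MC+HS. No mock array was above its 40th percentile, so the gene entered the measured set through the vector arrays alone and had to differ. With all 9 arrays the difference was 3.28 ± 0.48 in HS (9.74-fold, limma adjusted p = 0.0178) and 3.30 ± 0.48 in MC+HS (9.83-fold, adjusted p = 0.0243). Its size depends on the constant added before taking logs: in HS the fold was 19.9 with 1 added and 4.66 with 64 added, and in MC+HS 20.4, no longer called (limma adjusted p = 0.0515), and 4.60. The other passing probe set, 1438716_at, differed by 2.37 ± 0.40 in HS (limma adjusted p = 0.0372) and by 1.89 ± 0.40 in MC+HS (adjusted p = 0.112).

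Trim34a (1424857_a_at) belongs to the same interferon-induced cluster, and its human counterpart TRIM34 takes part in the restriction of retroviral capsids. Mock arrays read 4.94, 5.99 and 4.77, HS arrays 7.78, 7.29 and 7.23, and MC+HS arrays 6.96, 7.42 and 7.27. Here HS replicate 1 was the highest of the vector arrays, and again no mock array was above its 40th percentile. The 9-array difference was 2.20 ± 0.34 in HS (4.61-fold, limma adjusted p = 0.0214) and 1.98 ± 0.34 in MC+HS (3.95-fold, adjusted p = 0.0448). The HS fold ranged from 2.50 to 7.86 over the constants 64 and 1, and the MC+HS fold from 2.24 to 6.61 with the last not called (limma adjusted p = 0.0727). The fit without HS replicate 1 gave 2.03 ± 0.35 (limma adjusted p = 0.00725) and 1.98 ± 0.31 (adjusted p = 0.00439).

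Trim12c (1443858_at) is a mouse relative of the retrovirus restriction factor TRIM5. Its arrays read 6.75, 7.70 and 7.43 in mock, 8.04, 8.90 and 8.68 in HS and 8.57, 8.78 and 8.57 in MC+HS. The vector arrays did not overlap the mock arrays, and mock replicate 2 and HS replicate 1 were the nearest pair. The difference without HS replicate 1 was 1.49 ± 0.23 in HS (2.82-fold, limma adjusted p = 0.00385) and 1.35 ± 0.21 in MC+HS (2.54-fold, adjusted p = 0.00402). Neither passed over all 9 arrays (limma adjusted p = 0.131 and 0.105).

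Trim21 (1448940_at) encodes the cytosolic antibody receptor that sends antibody-coated virus to the proteasome. It stood at 8.35, 8.80 and 8.27 in mock, at 9.55, 9.97 and 10.28 in HS and at 9.78, 9.86 and 9.69 in MC+HS. All vector arrays were clear of the mock arrays, the lowest again being HS replicate 1. The 9-array rise in HS was 1.46 ± 0.24 (2.75-fold, limma adjusted p = 0.0303), and the difference of 1.30 ± 0.24 in MC+HS missed the threshold (2.46-fold, adjusted p = 0.0572). Leaving out HS replicate 1 gave 1.65 ± 0.16 in HS (limma adjusted p = 0.00021) and 1.30 ± 0.15 in MC+HS (adjusted p = 0.000581).

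Trim25 (1419879_s_at) adds ubiquitin chains that help activate the RNA sensor RIG-I and works with the antiviral protein ZAP. The mock arrays read 9.35, 10.20 and 9.29, the HS arrays 10.11, 11.47 and 11.75, and the MC+HS arrays 11.42, 11.22 and 11.05. HS replicate 1 fell below mock replicate 2, so HS and mock overlapped, while MC+HS and mock did not. Without HS replicate 1 the difference was 2.00 ± 0.24 in HS (limma adjusted p = 0.000674) and 1.62 ± 0.21 in MC+HS (3.07-fold, adjusted p = 0.00133). Over all 9 arrays neither difference was called (limma adjusted p = 0.351 and 0.308). Probe set 1425974_a_at gave a tighter 9-array result, 1.85 ± 0.32 in HS (limma adjusted p = 0.0429) and 1.85 ± 0.32 in MC+HS (adjusted p = 0.0498).

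Trim14 (1436199_at) lacks the RING finger and serves as an adaptor of the mitochondrial signalling protein MAVS. Its values were 6.42, 7.46 and 6.68 in mock, 7.88, 8.29 and 8.11 in HS and 8.28, 7.53 and 8.15 in MC+HS. MC+HS replicate 2 was barely above mock replicate 2, and 1 of the 3 mock arrays was above its 40th percentile. The difference without HS replicate 1 was 1.35 ± 0.30 in HS (limma adjusted p = 0.0324) and 1.13 ± 0.27 in MC+HS (adjusted p = 0.0451). Neither was called over all 9 arrays (limma adjusted p = 0.157 and 0.257).

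Trim56 (1441320_a_at) promotes signalling by the DNA-sensing pathway of cGAS and STING. It read 8.11, 8.42 and 7.55 in mock, 8.38, 8.87 and 9.06 in HS and 9.08, 9.07 and 9.04 in MC+HS. The MC+HS arrays lay close together and above every mock array, whereas HS replicate 1 fell inside the mock range. Without that array the rise was 0.94 ± 0.20 in HS (1.92-fold, limma adjusted p = 0.03) and 1.04 ± 0.18 in MC+HS (2.05-fold, adjusted p = 0.00914). The 9-array values were 0.75 ± 0.25 (limma adjusted p = 0.491) and 1.04 ± 0.25 (adjusted p = 0.184).

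The smallest of the called rises was that of Trim26 (1424929_a_at), reported to act on the interferon regulator IRF3. Mock arrays read 8.95, 8.87 and 8.72, HS arrays 8.29, 9.42 and 9.64, and MC+HS arrays 9.62, 9.46 and 9.33. HS replicate 1 was below all mock arrays and the 5 other vector arrays were above them. Without it the difference was 0.69 ± 0.13 in HS (1.61-fold, limma adjusted p = 0.0129) and 0.63 ± 0.12 in MC+HS (1.54-fold, adjusted p = 0.0125). In the 9-array fit it was 0.27 ± 0.32 in HS (limma adjusted p = 0.693) and 0.63 ± 0.32 in MC+HS (adjusted p = 1), neither called. The dimmer probe set 1421600_a_at was not called without HS replicate 1 (0.85 ± 0.33 in HS, limma adjusted p = 0.257, and 0.29 ± 0.29 in MC+HS, adjusted p = 0.743).

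Trim47 (1426784_at) was the single called gene from outside the interferon and antiviral list. It read 7.43, 7.96 and 7.43 in mock, 7.54, 8.44 and 8.53 in HS and 8.46, 8.42 and 8.36 in MC+HS. Apart from HS replicate 1, every vector array was above every mock array. The difference was 0.88 ± 0.17 in HS without that array (1.84-fold, limma adjusted p = 0.0139) and 0.81 ± 0.15 in MC+HS (1.75-fold, adjusted p = 0.0125). In the 9-array fit it was 0.56 ± 0.27 in HS (limma adjusted p = 0.635) and 0.81 ± 0.27 in MC+HS (adjusted p = 0.561).

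**Figure D2:**
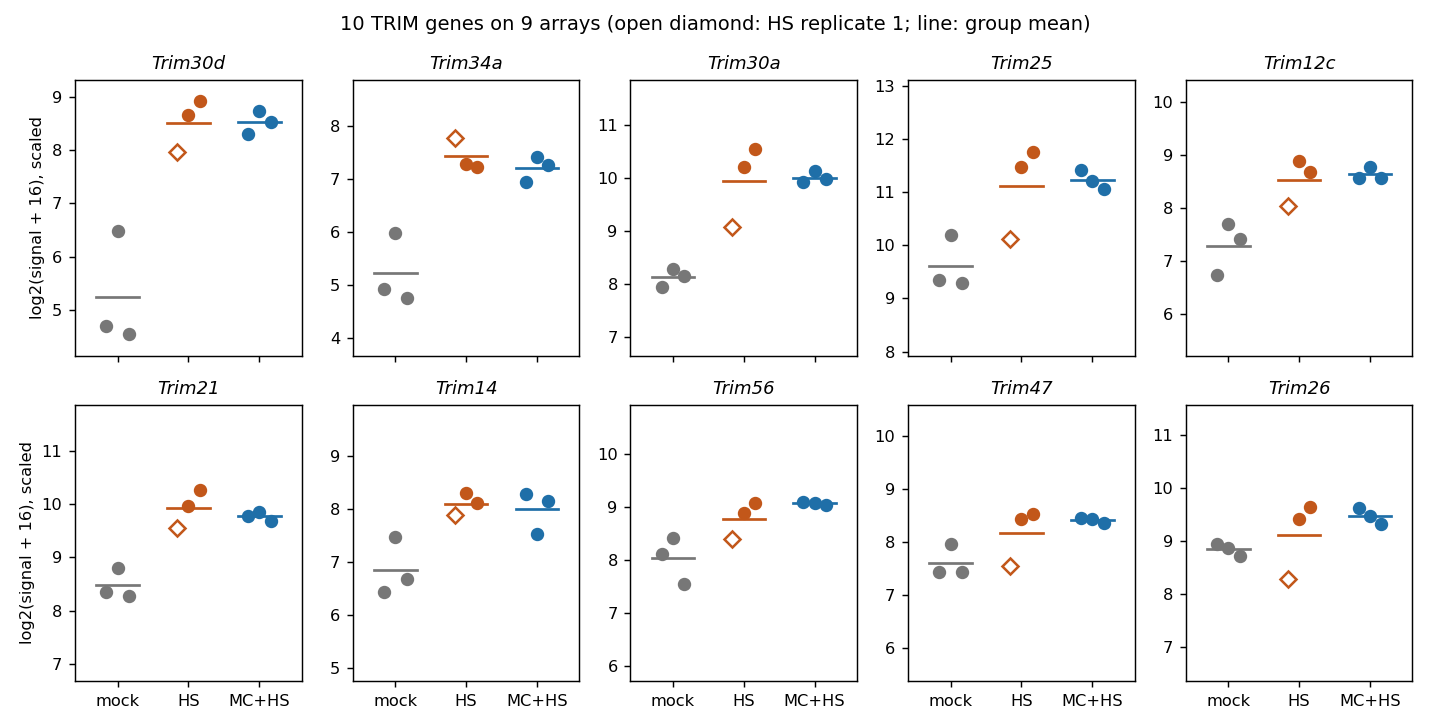
Level of the 10 called TRIM genes on each of the 9 arrays, as scaled log2(signal + 16), in mock, HS and MC+HS. Points are single arrays, the open diamond is HS replicate 1, lines are group means over all 3 arrays, and every panel spans the same number of log2 units. All MC+HS arrays lie above all mock arrays in each panel, and HS replicate 1 lies below the other HS arrays in every panel but that of Trim34a.

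In counts, with all 9 arrays 3 of 40 TRIM genes were called higher in HS than in mock, against 0.893% of all genes, and 0 were called lower, against 0.0375%. For MC+HS the counts were 2 higher, against 0.69%, and 0 lower, against 0.0225%. The numbers with an unadjusted limma p under 0.05 were 8 for HS and 9 for MC+HS. Without HS replicate 1, 10 of 40 were higher in HS (3.78% of all genes) and 10 in MC+HS (3.23%), and 0 were lower in either (0.39% and 0.435%). Trim30d and Trim34a passed the filter through the vector arrays alone and had to differ, and they make up 2 of the 3 calls in HS and both calls in MC+HS with all 9 arrays. Over genes with at least 1 mock array above its 40th percentile, the 9-array calls were 1 of 38 in HS, Trim21, against 0.593% of 13157 such genes, and 0 of 38 in MC+HS, against 0.464%. Without HS replicate 1 they were 8 of 38 in each vector group (21.1%), against 3.38% in HS and 2.83% in MC+HS. The vector groups share the mock arrays, so these counts are not separate evidence.

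The 9-array counts rested on single arrays. Leaving out HS replicate 1 gave 10 and 10 calls and leaving out mock replicate 2 gave 4 and 2, while leaving out any of the 7 others gave 0 to 1 for HS and 0 to 2 for MC+HS. When HS replicate 1 and 1 more array were left out, 5 to 10 genes were called in HS and 8 to 10 in MC+HS. The 5 came from the fits without HS replicate 2 or 3, in which HS is a single array, assumed to vary like the other groups. Trim21, Trim25, Trim30a and Trim30d were among the called genes in each of those 8 fits in both comparisons.

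Judged by array order alone, all HS arrays exceeded all mock arrays in 8 of 40 genes (20.0%), against 4.82% of all genes. For MC+HS this held in 11 of 40 (27.5%), against 11% of all genes. Trim30d and Trim34a are in both sets and entered through the vector arrays alone. Over genes with at least 1 mock array above its 40th percentile, the counts were 6 of 38 in HS (15.8%), against 4.05%, and 9 of 38 in MC+HS (23.7%), against 10.2%. The HS set was Trim12c, Trim14, Trim21, Trim30a, Trim30d and Trim34a together with Trim16 and Trim39. The MC+HS set was the 10 called genes and Trim41. Trim16, Trim39 and Trim41 were not called in either fit.

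Sorted by role, 9 genes of the interferon and antiviral list were measured, and all 9 were called higher without HS replicate 1 in both vector groups. Their median difference was 1.65 in HS and 1.35 in MC+HS, beside 0.05 and 0.01 over all genes. In the 9-array fit 3 and 2 of the 9 passed, with medians of 1.46 and 1.35 beside -0.23 and 0.01. Trim30d and Trim34a, which had to differ, are among these 9. The list was drawn up with results of these data known and is not independent evidence of its direction. Listed members Trim5, Trim6, Trim12a and Trim65 were on the array but too dim to be measured.

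The mean over the 10 called genes of each array's deviation from the mock mean was -0.24, 0.49 and -0.25 on the mock arrays, 0.93, 1.62 and 1.75 on the HS arrays and 1.51, 1.53 and 1.47 on the MC+HS arrays. Mock replicate 2 was the highest mock array in 9 of the 10 genes, the exception being Trim26. HS replicate 1 was the lowest HS array in the same number, the exception being Trim34a. The MC+HS arrays were nearly level with each other.

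Some markers of other cell types moved with the TRIM rises, and because the tissue was taken in bulk, a change in the number of cells of a type and a change in RNA per cell cannot be told apart. Each sum below is over the signals of all markers of a list on the array, dim ones included, and calls are from the fit without HS replicate 1. The infiltrating monocyte list (5 of 5 measured, none dim) summed to 520 to 1804 signal units on mock arrays, 6276 and 6574 on HS replicates 2 and 3, 2326 on HS replicate 1 and 5076 to 5547 on MC+HS arrays, and 4 of 5 markers were called higher in each vector group. Natural killer and cytotoxic markers (5 of 6 measured, Ncr1 dim) summed to 382 to 427 in mock and 1073 to 2183 in MC+HS. In HS they summed to 2565 and 2862 on replicates 2 and 3 and to 1269 on replicate 1. Of the 5 measured, 3 were called higher in each vector group, and Klrk1 was higher but not called. Prf1 went the other way, by -0.23 ± 0.14 in HS and -0.21 ± 0.13 in MC+HS, and was not called. On HS replicate 1 Prf1 read 5.92, against 7.63 to 7.74 in mock. Neutrophil markers (2 of 5 measured, with Mpo, Cxcr2 and Mmp8 dim) summed to 207 to 319 in mock, 723 to 893 in HS and 380 to 597 in MC+HS, with 2 of 2 called higher in each. These 3 lists were above mock on every vector array, HS replicate 1 included. S100a8, S100a9, Gzma, Gzmb, Nkg7, Chil3 and Ccr1 read 4.63 to 6.52 on the mock arrays, too dim there for the filter. They entered the measured set through the vector arrays alone and had to differ. The neutrophil and natural killer calls, all from these genes, therefore say little, and the sums hold the same genes. Of the called monocyte markers, Plac8 and Ms4a6d were bright enough on the mock arrays.

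Astrocyte markers (6 of 6 measured) summed to 25070 to 27990 in mock, 30600 and 34370 on HS replicates 2 and 3 and 27500 to 32070 in MC+HS, but to 8707 on HS replicate 1. Without that array 3 of 6 were called higher in HS and 2 of 6 in MC+HS, against 3.78% and 3.23% of all genes. In each group 5 of 6 differences were above 0. The exception, Slc1a2, differed by -0.09 ± 0.09 in HS and -0.21 ± 0.08 in MC+HS and was not called. Gfap, the filament protein of reactive astrocytes, rose by 1.47 ± 0.27 in HS (limma adjusted p = 0.0121) and by 1.28 ± 0.24 in MC+HS (adjusted p = 0.0147), and Aldh1l1 by 0.72 ± 0.15 and 0.61 ± 0.13 (limma adjusted p = 0.0233 and 0.0325). With all 9 arrays 0 of 6 were called in either group. Homeostatic microglia markers (6 of 6 measured) summed to 12320 to 14420 in mock, 9245 to 12770 in HS, the lowest being HS replicate 1, and 10890 to 13290 in MC+HS, with 3 of 6 called lower in each. Over all genes 0.39% were called lower in HS and 0.435% in MC+HS. T cell markers (3 of 6 measured, with Cd3d, Cd3g and Cd8b1 dim) summed to 594 to 704, 516 to 621 and 495 to 571, with 0 of 3 called. B cell markers (1 of 3 measured, with Cd79a and Cd79b dim) summed to 110 to 148 in mock, 62.6 and 100.9 on HS replicates 2 and 3 and 140 to 157 in MC+HS. The sum of 470 on HS replicate 1 came mostly from the dim markers, since the measured one, Ms4a1, read 7.04 there and 6.83 to 7.24 in mock. Oligodendrocyte markers (5 of 5 measured) had 0 called. The part of these cell types in the TRIM values was not tested.

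**Figure D3:**
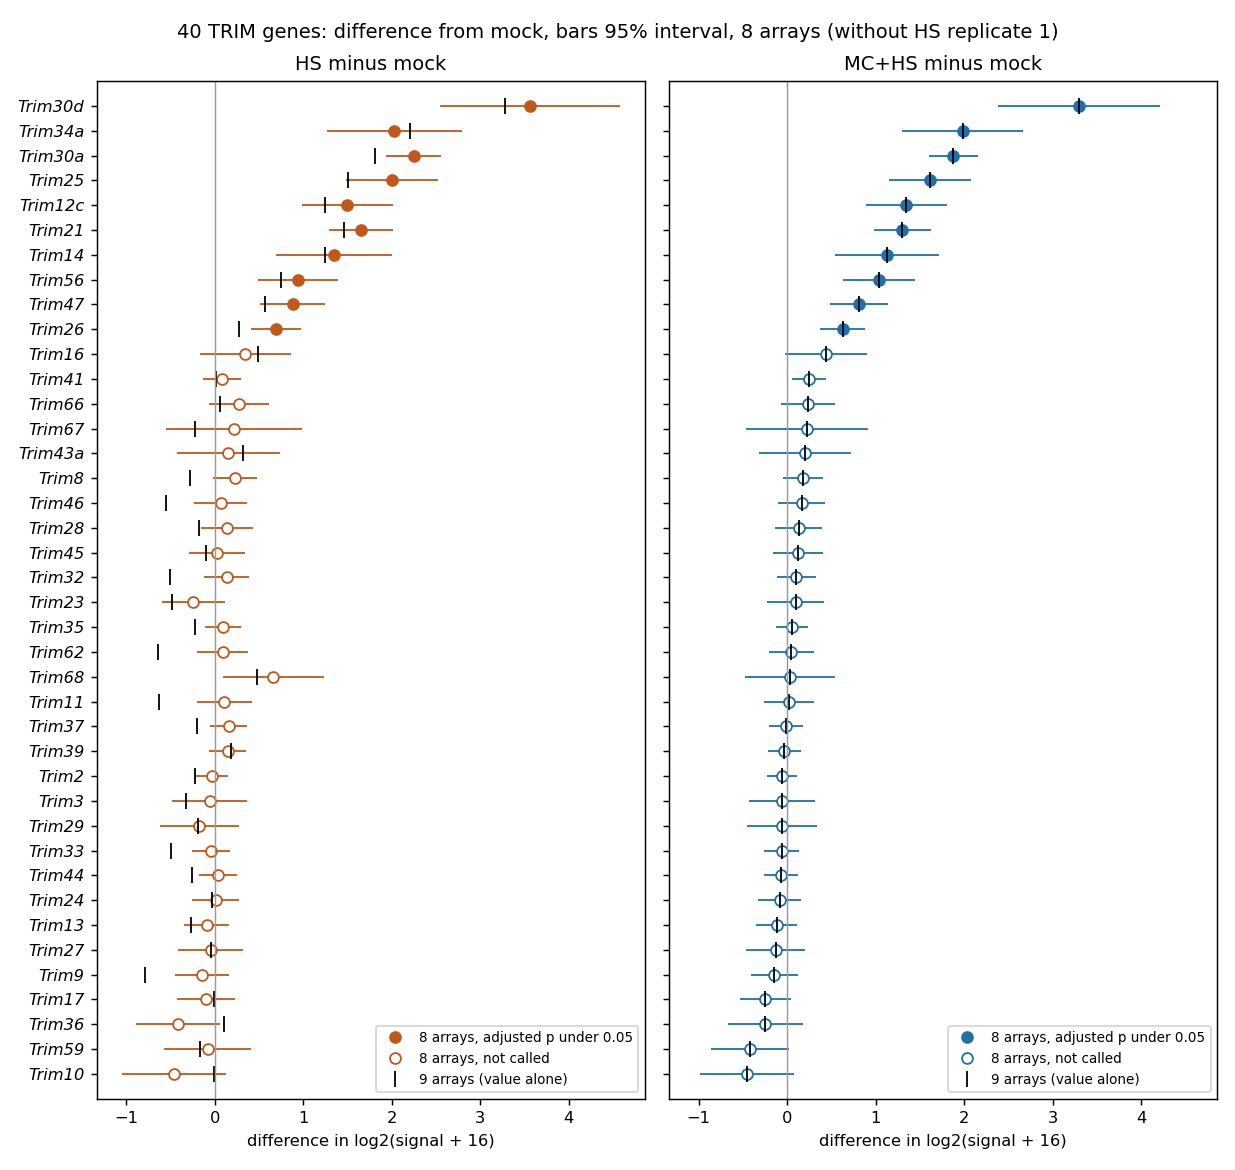
Difference from mock of the 40 measured TRIM genes in HS (left) and MC+HS (right), in log2(signal + 16). Circles and bars are the estimate and 95% interval of the fit without HS replicate 1, filled where called, and black ticks are the 9-array values. The 10 called genes lie at 0.63 or above, and in HS many ticks of other genes fall to the left of the circles.

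Chromatin members made up 5 of the measured genes, and 0 were called against mock in either fit. Trim28 (1456308_x_at), the corepressor that silences genes and transposons through KRAB zinc finger proteins, was at 12.23, 12.21 and 11.90 in mock, 11.29, 12.16 and 12.34 in HS and 12.47, 12.15 and 12.11 in MC+HS. Apart from HS replicate 1 the groups overlapped, with differences of 0.14 in HS and 0.13 in MC+HS. Trim24, a cofactor of nuclear receptors, Trim27, Trim33, a regulator of SMAD signalling, and Trim66 differed from mock by -0.05 to 0.27 in HS without HS replicate 1 and by -0.13 to 0.24 in MC+HS.

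Neuronal and cytoskeletal members made up 7, and 0 of them were called through the probe set that stood for the gene. Trim2 (1459860_x_at), a ligase for the neurofilament light chain, was among the brightest, at 12.66, 12.64 and 12.71 in mock, 12.07, 12.56 and 12.71 in HS and 12.70, 12.57 and 12.57 in MC+HS. Trim32 (1427476_a_at), known from neural progenitors and from a limb-girdle muscular dystrophy, read 11.78, 11.74 and 11.56 in mock, 9.91, 11.80 and 11.85 in HS and 11.99, 11.66 and 11.74 in MC+HS. In each of these genes HS replicate 1 was the lowest of the 9 arrays. For Trim2 the other arrays of the 3 groups overlapped. For Trim32, HS replicates 2 and 3 lay slightly above all mock arrays, and the MC+HS arrays overlapped both.

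The low values on HS replicate 1 ran through this list. Trim9 (1434249_s_at), which guides axon branching downstream of netrin, was at 9.44 there and at 11.04 to 11.55 on the 8 other arrays. Trim46 (1460568_at), which organises microtubules at the start of the axon, was at 7.99 against 9.71 to 10.17. The mean deviation of the 7 genes from mock was -1.01 on HS replicate 1, against -0.08 and 0.00 on the other HS arrays and -0.03 to 0.01 on the MC+HS arrays. On the same array the summed neuron markers were at 31250, against 42520 to 48630 on the others, and the part of this in the TRIM values was not tested. Trim36, dim and above its 40th percentile on 2 mock arrays, went the other way, 1.14 above the mock mean on HS replicate 1.

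The remaining 19 genes belong to no list, and of them only Trim47 was called. The brightest were Trim35, Trim37, a ligase of centrosomes and peroxisomes, and Trim44, which lacks a RING finger. Trim35 (1454650_at) read 12.43, 12.52 and 12.36 in mock, 11.58, 12.44 and 12.63 in HS and 12.57, 12.48 and 12.44 in MC+HS. Trim37 (1435604_at) read 12.12, 12.08 and 12.08, then 11.18, 12.15 and 12.35, then 12.16, 12.12 and 11.96. Trim44 (1421870_at) read 12.42, 12.41 and 12.38, then 11.54, 12.39 and 12.49, then 12.50, 12.24 and 12.24. In all 3 genes HS replicate 1 was the lowest array, at -0.86, -0.91 and -0.87 from the mock mean. The other arrays of the groups overlapped for Trim35 and Trim44. For Trim37, HS replicates 2 and 3 lay slightly above all mock arrays, and the MC+HS arrays overlapped both.

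No TRIM gene was called lower than mock. The smallest p among lower values in HS with all 9 arrays belonged to Trim23 (-0.49 ± 0.25, limma adjusted p = 0.635), Trim9 (-0.79 ± 0.48) and Trim13 (-0.27 ± 0.19). In MC+HS they belonged to Trim59 (-0.42 ± 0.23, limma adjusted p = 1), Trim17 (-0.25 ± 0.14) and Trim10 (-0.45 ± 0.38). At the level of single probe sets, 2 were called lower in MC+HS without HS replicate 1: Trim2 by 1448551_a_at (-0.46 ± 0.10, limma adjusted p = 0.0341) and Trim37 by 1436393_a_at (-0.45 ± 0.09, adjusted p = 0.0234). The brighter probe sets that stood for these genes differed by -0.06 ± 0.08 and -0.02 ± 0.09, and probe sets of a gene can read different transcript ends.

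**Figure D4:**
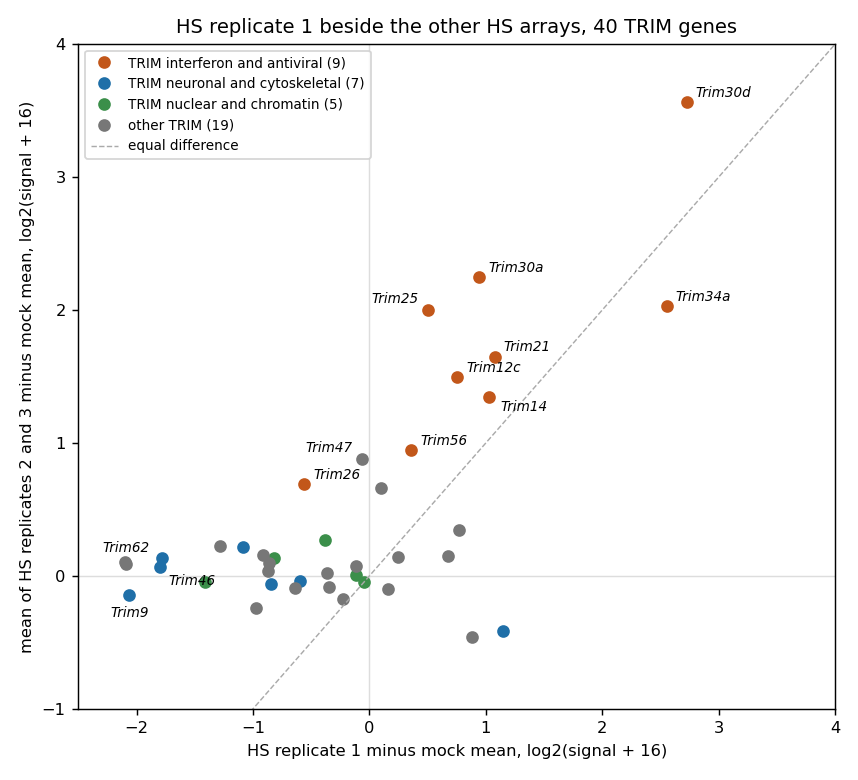
Difference from the mock mean on HS replicate 1 (horizontal axis) and on HS replicates 2 and 3 averaged (vertical axis) for the 40 measured TRIM genes, in log2(signal + 16), coloured by list. The dashed line marks equal differences. Genes of the interferon and antiviral list lie above 0 on both axes except Trim26, while Trim9, Trim46 and Trim62 lie near 0 on the vertical axis and between -2.09 and -1.80 on the horizontal axis.

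For the question of the study, whether the purification route changes the response, MC+HS was set against HS. With all 9 arrays 0 of 40 TRIM genes were called, as were 0% of all genes, and 1 TRIM gene, Trim23, had an unadjusted limma p under 0.05 (0.58 ± 0.25 higher in MC+HS, adjusted p = 0.728). Next among higher values were Trim46 (0.72 ± 0.46) and Trim62 (0.69 ± 0.50), and first among lower values Trim17 (-0.23 ± 0.14), Trim68 (-0.44 ± 0.28) and Trim39 (-0.21 ± 0.18). The count without HS replicate 1 was again 0, against 0.0075% of all genes, with an unadjusted p under 0.05 for Trim30a and Trim68. Trim30a was lower in MC+HS by -0.37 with a 95% interval of -0.68 to -0.06 (limma adjusted p = 0.59), and Trim68 by -0.62 with an interval of -1.19 to -0.05 (adjusted p = 0.621).

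Intervals show what difference these arrays could have missed. With all 9 arrays the 95% interval of the MC+HS minus HS difference lay within 2-fold either way for 24 of 40 genes, and without HS replicate 1 for 38 of 40, the exceptions being Trim30d (-1.28 to 0.75) and Trim68. For the 10 called genes the median of that difference was 0.08 with all 9 arrays and -0.18 without HS replicate 1, with 1 of the 10, Trim56, above 0 in the latter. Trim21 differed by -0.35 (interval -0.71 to 0.01). Its other passing probe set, 1418077_at, was lower in MC+HS by -0.74, with an interval of -1.14 to -0.34 that reaches past 2-fold (limma adjusted p = 0.357), and was not called. Trim25 differed by -0.38 (-0.90 to 0.14) and Trim34a by -0.05 (-0.81 to 0.72). A missed threshold does not show that the routes act alike.

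The 18 genes that were on the array but under the filter were Trim5, Trim6, Trim7, Trim12a, Trim15, Trim31, Trim40, Trim42, Trim54, Trim60, Trim61, Trim63, Trim65, Trim69, Trim71, Trim72, Trim75 and Trim80. They include every striated muscle member on the array, Trim54, Trim63 and Trim72. In 0 of the 18 did a probe set have all 6 vector arrays above all 3 mock arrays. The share of all genes with that order was not computed. A gene bright enough on at least 3 arrays would have passed the filter, so this count says little about the 18 genes. Their probe sets were above the 40th percentile on at most 2 of the 9 arrays, which does not show that the RNAs were absent. On HS replicate 1, Trim54 read 9.16 and Trim75 read 7.95.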

How the data were processed

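RNA from 9 mice was hybridised to 1 array per mouse. In the deposited table each probe set has a linear intensity on each array; the authors used GCOS 1.4.0.036, going by the submitters' processing notes, and the summary and scaling steps are not given in the sources used here. Values were turned into log2(intensity + 16) and shifted so that all array medians were equal, by 0.66 at most. The 64 control probe sets were dropped, and of 45101 probe sets 28257 lay above the 40th percentile of their array on at least 3 arrays. The adjustment over all of them was made in each of 3 contrasts, two-sided. No detection calls were used, so dim genes carry no bound.

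The 9 arrays were fitted in 1 limma model (limma 3.58.1, statmod 1.5.0, R 4.3.3; lmFit, eBayes with intensity trend, group as the only term), and again without HS replicate 1. Scripts were checked on simulated data. Symbols came from a dated platform annotation, and all 58 TRIM genes matched a RefSeq gene by Entrez identifier with 0 symbols changed; 5 TRIM probe sets annotated with several symbols were given no gene.

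The TRIM rule, the gene lists and the tests were chosen with earlier results of these data known. Named with values on every array were the genes called in either fit, the measured interferon and antiviral members and the 6 brightest genes, and, with difference and standard error only, the 3 genes of smallest p in a direction with no call. Trim9, Trim46 and Trim36 on HS replicate 1, and Trim16, Trim39 and Trim41, were named after their values were seen. The rule set promoters before the start only; the motif was also searched after it. Protein sequences were not used here.

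The labels do not say whether replicate numbers pair the mice, and the main fits did not pair them. Deviations from group means correlated at -0.168 to 0.287 for 9 same-numbered pairs and at -0.318 to 0.159 for 18 others. The highest, 0.287 and 0.261, were same-numbered pairs of mock and MC+HS. With 3 arrays a group these overlapping ranges cannot decide whether the numbers pair mice. Alternatives were other pseudocounts, filters, normalizations, priors, array weights, probe set choices, a replicate block, only the 6 arrays compared and each array left out.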

Additional observations from a re-analysis of the deposited data

Results flagged for a closer look

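Among the 5 TRIM probe sets annotated with several symbols, which the comparisons leave out, 2 had all 6 vector arrays above all 3 mock arrays. Over all genes, 4.82% had all HS arrays above all mock arrays and 11% all MC+HS arrays. The share for both vector groups together was not computed. Probe set 1456494_a_at, shared by Trim30d and Trim30a, was 1.74 higher on the vector arrays than on the mock arrays in log2(signal + 16). Its limma difference from mock was 1.90 ± 0.19 in HS (Benjamini-Hochberg adjusted p = 0.00353) and 1.59 ± 0.19 in MC+HS (adjusted p = 0.0103). Probe set 1421550_a_at, shared by Trim34b and Trim34a, was 1.54 higher, with limma differences of 1.74 ± 0.23 in HS (Benjamini-Hochberg adjusted p = 0.0114) and 1.34 ± 0.23 in MC+HS (adjusted p = 0.0454).

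Trim39 (1418851_at) stood on opposite sides of the mock mean in the vector groups. Its arrays read 9.86, 9.83 and 9.87 in mock, 10.10, 10.05 and 9.94 in HS and 9.83, 9.80 and 9.84 in MC+HS. The MC+HS minus HS difference was -0.21, and it was not called by limma (Benjamini-Hochberg adjusted p = 0.728).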

How the results depend on the processing

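With 3 arrays a group, and 2 in HS where replicate 1 is left out, changes near 2-fold could be missed, and dim genes lie near background. For HS against mock (3 genes called) the count was 6 with quantile normalization, 13 with array weights (whose estimation stopped before convergence), 0 with only the 6 arrays compared and 5 by each gene's smallest-p probe set. For MC+HS against mock (2 called) it was 0 with a pseudocount of 1, 1 with no filter, 1 with the filter at the 60th percentile, 1 with no scaling, 9 with array weights, 9 with the 6 arrays, 4 with the mean of a gene's probe sets and 4 by smallest p. For MC+HS against HS (0 called) it was 6 with array weights, 2 higher and 4 lower, and 0 under every other setting. The cause of these moves was not tested. Leaving out 1 array in turn gave 0 to 10 calls in each comparison with mock, and HS replicate 1 with 1 more, 5 to 10 and 8 to 10, the 5 where HS was left with 1 array. With the replicate number as a block, 2 genes were called in HS and 1 in MC+HS, and 9 in each with HS replicate 1 left out too. The smallest-p choice, the latter block and the leaving out of 2 arrays were chosen after seeing the data. Of 3693 values of the 40 genes under these settings, 3478 kept their side of the threshold, 170 newly passed it, 45 no longer did, and 0 reversed a call.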

Other observations

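TRIM proteins also exist under other symbols. Of 6 measured genes of that kind, Pml, Mid1, Mid2, Mefv, Cmya5 and Rnf207, Pml alone was called. Pml, the organiser of nuclear bodies, read 7.58, 7.99 and 7.45 in mock, 9.06, 9.37 and 9.43 in HS and 9.29, 9.22 and 8.98 in MC+HS on the log2(signal + 16) scale. All vector arrays lay above all mock arrays, and the difference was 1.61 ± 0.19 in HS (limma, Benjamini-Hochberg adjusted p = 0.00771) and 1.49 ± 0.19 in MC+HS (adjusted p = 0.015), called with all 9 arrays.

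Proteins that TRIM ligases act on or work with were taken as a further list, 27 genes of which were measured. With all 9 arrays 6 were called higher in HS, against 0.893% of all genes, and the same 6 in MC+HS, against 0.69%, and 0 were lower. Without HS replicate 1 the counts were 13 (3.78% of all genes) and 11 (3.23%), with 0 lower. The list was drawn up with results of these data known. The sensors that TRIM25 and its relatives modify were among them. Ddx58, which encodes RIG-I, rose by 2.01 ± 0.29 in HS (limma, Benjamini-Hochberg adjusted p = 0.0178) and by 1.72 ± 0.29 in MC+HS (adjusted p = 0.0453). Ifih1, which encodes the RNA sensor MDA5, rose by 3.02 ± 0.31 in HS (limma adjusted p = 0.00409) and by 2.63 ± 0.31 in MC+HS (adjusted p = 0.0103). Dhx58, the related regulator LGP2, rose by 2.89 ± 0.41 and 2.67 ± 0.41 (limma adjusted p = 0.0148 and 0.0289).

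The other partners called with all 9 arrays were Irf7 and Irf9, factors of interferon induction and response, and Uba7, the activating enzyme of ISG15. Irf7 rose by 2.64 ± 0.39 in HS and 2.56 ± 0.39 in MC+HS (limma, Benjamini-Hochberg adjusted p = 0.0185 and 0.0281), Irf9 by 1.90 ± 0.32 and 1.82 ± 0.32 (adjusted p = 0.0352 and 0.0494) and Uba7 by 2.08 ± 0.28 and 2.11 ± 0.28 (adjusted p = 0.0116 and 0.0164). Called in both vector groups only without HS replicate 1 were Zc3hav1, Usp18, Stat2, Ube2l6 and Myd88. Usp18, which removes ISG15 from proteins, rose by 3.47 ± 0.43 in HS and 3.30 ± 0.38 in MC+HS (limma adjusted p = 0.000857 and 0.000676). Stat2, a factor of the interferon response, rose by 1.67 ± 0.19 and 1.32 ± 0.17 (limma adjusted p = 0.000555 and 0.00129), and Ube2l6, the ISG15-conjugating enzyme, by 1.90 ± 0.21 and 1.82 ± 0.19 (adjusted p = 0.000497 and 0.000375). Ube2l6 read at most 6.44 on the mock arrays, too dim there for the filter. It entered through the vector arrays alone and had to differ. Myd88, an adaptor of Toll-like receptors, rose by 1.18 ± 0.17 and 0.97 ± 0.16 (limma adjusted p = 0.00263 and 0.00521). Zc3hav1, which encodes ZAP, was at 2.15 ± 0.26 in HS and 1.63 ± 0.23 in MC+HS (limma adjusted p = 0.000814 and 0.00264). Sting1 and Cgas, sensors of the DNA pathway that Trim56 serves, were called in HS alone without that array, at 0.61 ± 0.14 and 0.66 ± 0.13 (limma adjusted p = 0.0415 and 0.0173), beside 0.41 ± 0.13 and 0.43 ± 0.12 in MC+HS (adjusted p = 0.134 and 0.0798). Whether those differences differ between the vector groups was tested by MC+HS against HS, where limma called 0 of the 27 in either fit and 0 had an unadjusted p under 0.05.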
